A study of Mus musculus with 12 samples.

Results

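Formative and epiblast marker genes mark pluripotent cells that have left the naïve state, and 7 of them were followed through naïve and primed mouse embryonic stem cells (ESCs): Otx2, Fgf5, Pou3f1, Sox3, Zic2, Lin28b and Sall2. They were chosen by name, with earlier results of these data known, and all 7 were found among the 26061 genes of the table. The 12 poly(A) RNA-seq libraries came from Tet2 KO ESCs in which a PiggyBac transposon carried either WT TET2 or a catalytic mutant (H1304Y, D1306A), and every library, in all 4 groups, also carried shSetdb1. Each rescue line was grown in 2i medium with LIF, PD0325901 (a MEK inhibitor) and CHIR99021 (a GSK3 inhibitor), called naïve, or in serum with LIF, called primed, with 3 libraries per group. Cells were kept without feeders and collected after 3 days of puromycin selection. Libraries with another shRNA were not analysed here, so nothing below measures a response to SETDB1 depletion. The labels name 1 line per rescue, so a difference between lines cannot be told apart from one that comes with deriving a line, and no source says whether the 3 libraries of a group were separate cultures. The p-values therefore measure only the spread between libraries.

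In the mouse embryo the naïve epiblast of the blastocyst passes through a formative phase after implantation, in which the naïve programme is shut down, before cells become competent to form the germ layers. OTX2 is a homeobox transcription factor that redirects OCT4 to new enhancers during this step, and FGF5 is a secreted growth factor whose transcript is a classical mark of the post-implantation epiblast. In culture, inhibition of MEK and GSK3 holds ESCs in the naïve state, whereas ESCs in serum are heterogeneous and some of them express epiblast genes. Levels in bulk RNA do not tell apart fewer expressing cells from less RNA per cell.

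On the mm9 build the markers lie apart from each other on 5 chromosomes. Otx2 spans 14:49277354-49287319 on the minus strand, Sall2 14:52930847-52948437 on the minus strand and Zic2 14:122874604-122879074 on the plus strand. Fgf5 spans 5:98683203-98706049 on the plus strand and Lin28b 10:45096426-45206201 on the minus strand. Pou3f1, at 4:124334896-124337899 on the plus strand, and Sox3, at X:58144545-58146605 on the minus strand, each have 1 exon. The annotation places no antisense gene over any of the 7, which matters because the libraries kept no strand information. Pou3f1 has 1 overlapping entry on the same strand, which carries the same name and is listed as a pseudogene (4:124334889-124337899).

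For 4 of the 7 markers the RefSeq promoter table (build GRCm38.p6) held a start site. The 250 bases upstream of one start of each are shown because the first 3 of these genes (Otx2, Fgf5 and Sall2) were high in primed cells without overlap, whereas Lin28b was not. Capitals mark the motif matches found, and both strands were searched. Where a gene had several starts, the window with an OTX core was taken if there was one, and otherwise the most upstream.
Otx2, chr14:48665110-48665359, minus strand: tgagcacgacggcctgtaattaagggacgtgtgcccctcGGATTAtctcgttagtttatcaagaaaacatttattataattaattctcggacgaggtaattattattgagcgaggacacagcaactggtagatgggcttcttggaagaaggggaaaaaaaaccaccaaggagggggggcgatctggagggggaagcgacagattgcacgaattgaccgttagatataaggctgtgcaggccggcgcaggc
Fgf5, chr5:98253934-98254183, plus strand: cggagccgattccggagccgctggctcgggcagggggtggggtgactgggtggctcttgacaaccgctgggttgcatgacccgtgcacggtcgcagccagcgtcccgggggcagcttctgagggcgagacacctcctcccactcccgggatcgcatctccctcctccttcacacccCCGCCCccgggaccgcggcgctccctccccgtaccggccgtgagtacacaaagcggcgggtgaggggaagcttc
Sall2, chr14:52328671-52328920, minus strand: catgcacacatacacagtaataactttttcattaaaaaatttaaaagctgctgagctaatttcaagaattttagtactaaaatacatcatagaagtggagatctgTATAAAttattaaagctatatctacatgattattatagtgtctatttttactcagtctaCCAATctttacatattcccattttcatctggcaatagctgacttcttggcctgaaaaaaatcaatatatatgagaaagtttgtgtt
Lin28b, chr10:45470202-45470451, minus strand: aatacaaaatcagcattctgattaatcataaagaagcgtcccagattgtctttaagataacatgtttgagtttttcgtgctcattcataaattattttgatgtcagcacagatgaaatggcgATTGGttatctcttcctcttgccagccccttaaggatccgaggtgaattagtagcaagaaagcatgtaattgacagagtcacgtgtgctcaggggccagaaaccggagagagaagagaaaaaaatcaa
The Otx2 window, 1 of 4 listed for the gene, was taken because it held an OTX core (TAATCC or its reverse GGATTA), 211 bases before the start, so its presence there is not a result. Of the 32851 single windows of this length in the table, 6.25% held one. The Fgf5 window held a GC box (GGGCGG or CCGCCC), which 32.7% of windows hold, 74 bases before the start. The Sall2 window held a CCAAT box (CCAAT or ATTGG, in 33.8% of windows) and a TATA box (TATAAA or TTTATA, in 12.4%), and the Lin28b window held a CCAAT box. None of the 4 windows held the POU octamer (ATGCAAAT or ATTTGCAT, in 1.6% of windows), the SOX core (ACAATG or CATTGT, in 10.7%), the TCF/LEF core (CTTTGAT or ATCAAAG, in 3.21%) or the ETS core (CCGGAAGT or ACTTCCGG, in 2.88%). The GC content was 70.8% in the Fgf5 window, 48.4% for Otx2, 39.2% for Lin28b and 28.0% for Sall2, against a median of 52.4% over all windows. No motif searched was found in all 4 windows.

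Expression is given as the deposited log2-scale value, which has the same lowest value of 3.81 in every library for a gene with 0 reads. The transformation behind it could be inverted to whole reads, and gene totals were 8066662 to 21335933 reads per library. A normalised read is a read divided by the size factor of its library. The targeted genes were read in every library. Setdb1 had 114 to 585 reads, and Tet2 was higher with WT than with mutant TET2, by 2.16 in naïve and 1.84 in primed ESCs on the log2 scale (limma, adjusted p = 0.0154 and 0.0297), with transgene and endogenous reads not separated. Both were also higher in primed than in naïve ESCs, Tet2 by 1.71 (limma, adjusted p = 1.94e-05) and Setdb1 by 0.44 (adjusted p = 0.0472), and their part in the differences between media was not tested.

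The 7 markers were compared between primed and naïve ESCs to ask how far each tracks the culture state. Otx2, Pou3f1, Sall2 and Zic2 were higher in primed ESCs over both rescue lines, 4 of the 6 markers that passed the filter on low values, and 0 were lower. Among all 14185 genes tested, 25.4% (3603) were called higher in the same comparison, and 7342 were called in either direction. Fgf5 missed the filter, since its mean over the 12 libraries was too low, and Sox3 and Lin28b did not pass the test. The 6 differences had a median of 0.81 on the log2 scale, and the median of all genes tested was -0.0018.

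**Figure D1:**
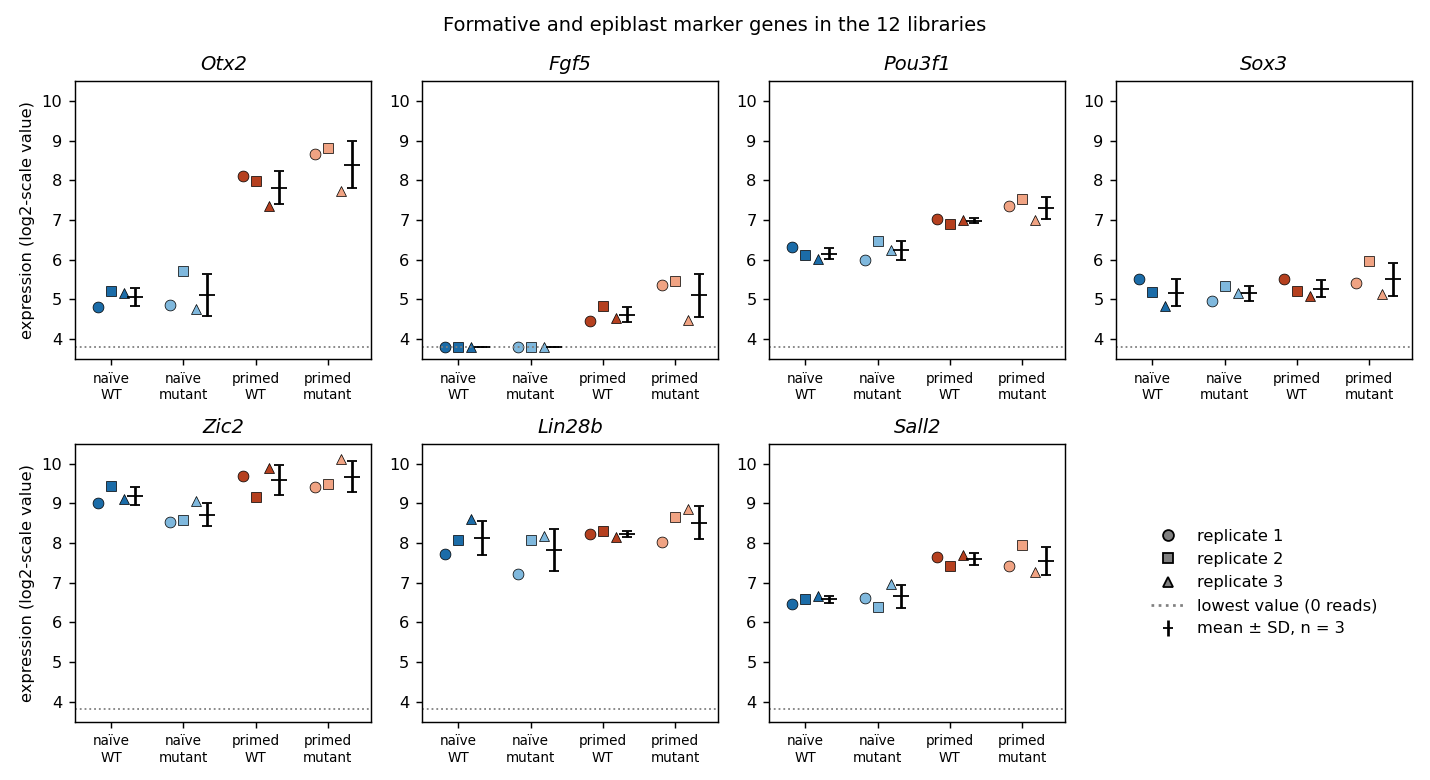
Expression of the 7 markers on the deposited log2 scale (y axis) in each of the 4 groups (x axis), with points for single libraries, shapes for replicate numbers and bars for mean ± SD (n = 3). Primed libraries lie above every naïve library for Otx2, Fgf5, Pou3f1 and Sall2, whereas Sox3, Zic2 and Lin28b overlap.

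On the log2 scale Otx2 had the largest difference of the 6 tested markers. In primed ESCs its log2-scale values were 8.11, 8.0 and 7.34 with WT TET2 and 8.66, 8.81 and 7.72 with mutant TET2. In naïve ESCs they were 4.81, 5.22 and 5.17 with WT and 4.85, 5.71 and 4.76 with mutant TET2. Every primed library lay more than a log2 unit above every naïve library, and replicate 3 was the lowest primed library of each line. The difference over both lines was 3.02 (standard error 0.22, limma, adjusted p = 1.12e-08; exact two-sided permutation test of 6 against 6 libraries, p = 0.00216, the smallest possible). In normalised reads, Otx2 was 20.7-fold higher in primed ESCs, with 6 to 26 reads per naïve library and 169 to 390 per primed library. Ordered by the size of the increase, it ranked 25 of the 14185 genes tested. The increase was 2.75 in the WT and 3.29 in the mutant rescue line (standard error 0.30 each, limma, adjusted p = 4.79e-06 and 8.26e-07).

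Fgf5, the only secreted factor of the 7, was not read in naïve ESCs at all. All 6 naïve libraries had 0 reads. Primed libraries had 2, 6 and 7 reads in the order of their log2-scale values 4.46, 4.82 and 4.54 with WT TET2, and 13, 19 and 3 reads, at 5.36, 5.46 and 4.49, with mutant TET2. The 2 media therefore did not overlap, although a few reads carry the difference. Against a limit of 3 reads over the 6 naïve libraries, Fgf5 was at least 20.6-fold higher in primed ESCs and this limit covers counting error only. Without the filter on low values its log2-scale difference was 1.05 (limma over 19954 genes). No p-value is given for it, since Fgf5 enters that fit only through its primed reads and its naïve values have no spread.

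Pou3f1 encodes OCT6, a POU-domain transcription factor of the epiblast and later of glia and neurons. Its primed values were 7.03, 6.91 and 6.99 with WT TET2 and 7.35, 7.54 and 6.99 with mutant TET2. Its naïve values were 6.31, 6.13 and 6.03 with WT and 6.0, 6.47 and 6.25 with mutant TET2. The lowest primed library (6.91) lay above the highest naïve library (6.47). The difference of 0.94 (standard error 0.14, limma, adjusted p = 2.92e-05) corresponded to a 2.39-fold increase in normalised reads. Unlike Otx2, Pou3f1 kept a clear naïve level of 39 to 88 reads per library.

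Sall2, a spalt-like zinc finger transcription factor, rose by a similar amount. Its primed values were 7.65, 7.42 and 7.71 with WT TET2 and 7.41, 7.94 and 7.28 with mutant TET2. The naïve values were 6.47, 6.60 and 6.66 with WT and 6.61, 6.38 and 6.97 with mutant TET2. The groups again did not overlap. Sall2 was higher in primed ESCs by 0.95 (standard error 0.15, limma, adjusted p = 5.61e-05), or 2.26-fold in normalised reads, and by 1.01 and 0.89 in the WT and mutant lines (limma, adjusted p = 0.00138 and 0.00374).

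Zic2, a zinc finger transcription factor that binds enhancers in ESCs, was the most abundant of the 7 and differed less. Primed values were 9.69, 9.16 and 9.89 with WT TET2 and 9.42, 9.49 and 10.11 with mutant TET2. Naïve values were 9.01, 9.45 and 9.10 with WT and 8.53, 8.57 and 9.05 with mutant TET2. The media overlapped, since WT naïve replicate 2 lay above 2 of the 6 primed libraries. Over both lines the difference was 0.68 (standard error 0.16, limma, adjusted p = 0.00209; exact permutation test, p = 0.00649), which is 1.63-fold in normalised reads. Within lines, Zic2 was called in the mutant line, at 0.96 (adjusted p = 0.00386), and not in the WT line, at 0.39 (95% interval -0.08 to 0.87, adjusted p = 0.184). The 2 increases were not shown to differ, as the interaction was -0.56 (limma, adjusted p = 0.976).

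Lin28b encodes an RNA-binding protein that blocks maturation of the let-7 microRNAs. Primed values were 8.23, 8.31 and 8.15 with WT TET2 and 8.04, 8.65 and 8.85 with mutant TET2. Naïve values were 7.73, 8.07 and 8.59 with WT and 7.21, 8.07 and 8.17 with mutant TET2. The spread within naïve groups was as wide as the step between media, and 2 of 6 primed libraries exceeded all naïve ones. The difference was 0.40 over both lines (95% interval -0.0065 to 0.80, limma, adjusted p = 0.0920), 0.10 in the WT line (adjusted p = 0.803) and 0.70 in the mutant line (adjusted p = 0.0552). This result rests on single libraries. Without naïve WT replicate 3, naïve mutant replicate 3 or primed mutant replicate 1 the difference over both lines was 0.51, 0.49 and 0.52, each with an adjusted p under 0.05 from limma. In the mutant line it was called without naïve WT replicate 1 or 3 (0.70 in both fits) and without naïve mutant replicate 3 (0.87) or primed mutant replicate 1 (0.93).

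Sox3, a SOXB1 transcription factor of the epiblast and of neural progenitors, was not called. Primed values were 5.52, 5.22 and 5.08 with WT TET2 and 5.42, 5.97 and 5.14 with mutant TET2. Naïve values were 5.52, 5.18 and 4.82 with WT and 4.95, 5.34 and 5.16 with mutant TET2. A single primed library, mutant replicate 2, lay above all naïve libraries. The difference of 0.23 (95% interval -0.13 to 0.58, limma, adjusted p = 0.273) was within the spread between replicates, at 7 to 35 reads per library.

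**Figure D2:**
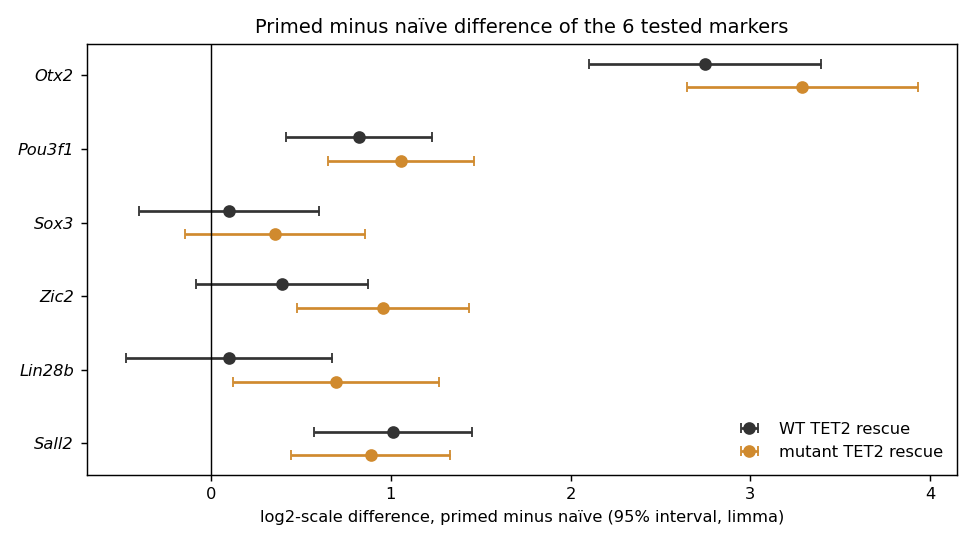
Log2-scale difference between primed and naïve ESCs (x axis, primed minus naïve) for the 6 tested markers in the WT and the mutant rescue line, with 95% intervals from limma. Intervals for Otx2, Pou3f1 and Sall2 exclude 0 in both lines, those of Zic2 and Lin28b in the mutant line, and those of Sox3 include 0 in both.

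Considered by rescue line, 3 of 6 tested markers were higher in primed ESCs with WT TET2 (Otx2, Pou3f1 and Sall2), where 17.3% of all genes tested were called higher. With mutant TET2 4 of 6 were higher, Zic2 being the addition, against 16.9% of all genes. Pou3f1 rose by 0.82 and 1.06 in the WT and mutant lines (limma, adjusted p = 0.0035 and 0.000576). Over both lines the primed libraries lay wholly above the naïve ones for Otx2, Pou3f1, Sall2 and the untested Fgf5, and for 12.1% of all genes tested.

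The order of the 7 genes by median changed between the media when levels were compared per kilobase of exon. In naïve ESCs the median was 118 normalised reads per kb for Zic2, 26.6 for Lin28b, 15.9 for Pou3f1, 13.2 for Sall2, 6.51 for Sox3, 3.09 for Otx2 and 0 for Fgf5 (6 libraries). In primed ESCs Zic2 was again first, at 178, but Otx2 came next at 70.1. It was followed by Pou3f1 at 34.1, Lin28b at 31.0, Sall2 at 29.3, Sox3 at 8.19 and Fgf5 at 2.19. The ranges of Pou3f1 (31.3 to 53.1), Lin28b (26 to 47.9) and Sall2 (23.6 to 40.2) overlapped in primed ESCs. No pair of these 3 neighbours kept the same order in every primed library. The primed range of Otx2 (39.9 to 124) also overlapped with each of these 3, but within every primed library Otx2 was above them. In WT replicate 3, the lowest for Otx2, it was 39.9 against 33.5, 28.3 and 33.6. In naïve ESCs the ranges of Lin28b (13.4 to 39.6), Pou3f1 (12.9 to 21.0) and Sall2 (10.6 to 18.3) overlapped as well. Within every naïve library Lin28b was above Pou3f1 and Sall2, narrowly in mutant replicate 1 (13.4 against 12.9 and 13.2). By median Otx2 was below Sox3 in naïve ESCs, where their ranges overlapped (1.86 to 8.31 and 3.5 to 10.8), and above all markers but Zic2 in primed ESCs. Fgf5, at 1.18 to 8.18 per kb in primed ESCs, stayed the lowest by median in both media.

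The other genes of the formative and epiblast programme mostly followed the same direction. Of a list of 21, 19 passed the filter, and 14 were higher in primed ESCs, 2 were lower and 3 did not pass the test, with a median difference of 1.10. Of all genes tested, 25.4% were called higher. The largest were Dnmt3l, the cofactor of the de novo DNA methyltransferases (5.18), Etv4, an ETS factor downstream of FGF signalling (3.95), the methyltransferase Dnmt3b (2.33) and the chromatin-associated factor Utf1 (2.22). Only Dnmt3l and Etv4 of this list therefore exceeded the 3.02 of Otx2. Lef1, a nuclear effector of WNT signalling, and Tead2 were lower, by -1.17 and -0.65. Fgf8 and Fgf15, the 2 other ligands listed, were too low to test.

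Paralogs of the 7 markers did not move as a group. Of 15 listed, 8 were tested, with 3 higher, 2 lower and 3 not called, and a median of 0.15. Beside these stand 7342 of all 14185 genes called in either direction, 3603 of them higher. Lin28a, which shares the let-7 role of Lin28b, was higher in primed ESCs by 3.23 (limma, adjusted p = 1.80e-08), against the 0.40 of Lin28b. Sall4 and Sall1 were higher by 1.18 and 1.01, close to the 0.95 of Sall2. Otx1 went the other way from Otx2 and was lower by -1.0 (limma, adjusted p = 3.61e-05). Sox2 differed by 0.10 and was not called, like its relative Sox3.

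**Figure D3:**
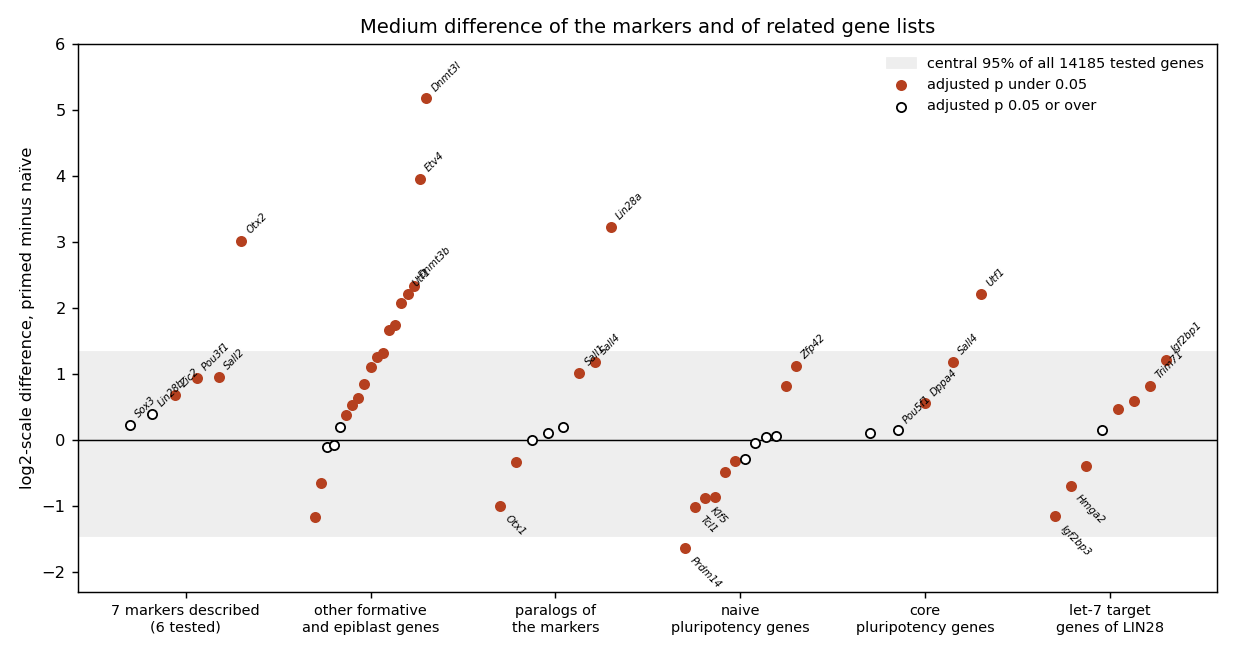
Log2-scale difference between primed and naïve ESCs over both rescue lines (y axis) for the 6 tested markers and the tested genes of 5 related lists (x axis), filled where the limma adjusted p was under 0.05, with the 4 largest of each list named. The grey band holds the central 95% of all 14185 genes tested, and Otx2 lies above it with Dnmt3l, Etv4, Lin28a and others.

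Naïve pluripotency genes moved less and in both directions. Of 13 listed, 12 were in the table and tested, and 6 were lower in primed ESCs, 2 higher and 4 not called, with a median of -0.31. Of all 14185 genes tested, 7342 were called in either direction, 3603 of them higher. Prdm14 (-1.63), Tcl1 (-1.02) and Klf5 (-0.88) were lower, whereas Zfp42, which encodes REX1, was higher by 1.12. Among 5 core pluripotency genes 3 were higher, Utf1 (2.22), Sall4 (1.18) and Dppa4 (0.56), and Pou5f1, which encodes OCT4, had a difference of 0.14 that did not pass the test. Of 8 let-7 targets, the transcripts that LIN28 proteins protect through let-7, 4 were higher and 3 lower with a median of 0.30. Igf2bp1 and Trim71 were higher by 1.22 and 0.81, and Igf2bp3 and Hmga2 lower by -1.16 and -0.69. Some genes, such as Sall4 and Utf1, stand in more than 1 list.

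Most markers of other cell types were too low to test. Summed over 5 trophoblast genes, normalised reads were 6.82 to 39.1 in naïve and 105 to 230 in primed libraries. Gata3 was higher by 3.09, and Krt7 was not called over both lines. Krt7 was called higher in the WT line (0.87) and not called in the mutant line (-0.52). Gata3 and Elf5 had 0 reads in all 6 naïve libraries. Over 6 primitive streak and mesoderm genes the sums were 72.2 to 126 in naïve and 128 to 189 in primed libraries, with Eomes higher by 1.51 and Gsc lower by -0.95. Over 7 endoderm genes they were 41.3 to 81.8 and 59.2 to 104, with Dab2 higher by 1.16 and Gata4 and Sox17 not called. Over 5 neuroectoderm genes they were 639 to 1044 and 746 to 1136, with Pax6 higher by 1.38 and Nes not called. Over 6 fibroblast genes they were 67.2 to 93.8 and 29.4 to 60.6, and 3 collagen and matrix genes (Col1a2, Col3a1 and Dcn) were at 0 in every library. Thy1 was lower by -1.13, whereas Lum, at 0.32, was not called over both lines and was called higher in the mutant line (0.95). The trophoblast sums and the primitive streak and mesoderm sums of the 2 media did not overlap and were higher in primed libraries, like the markers called. The fibroblast sums did not overlap either and were lower in primed libraries. The part of these cell types in the marker differences was not tested. The mesoderm genes went in both directions, and T, too low to test, had mean log2-scale values of 4.96 and 4.80 in the naïve and 3.95 and 4.10 in the primed WT and mutant lines. Unlike T, the untested endoderm gene Sox7 had 3.81 and 3.91 in the naïve and 5.41 and 4.94 in the primed lines. The untested trophoblast gene Hand1 had 3.81 and 3.95 in the naïve and 5.90 and 5.17 in the primed lines.

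The WT and mutant rescue lines were compared within each medium to ask whether the form of TET2 goes with the level of these genes. Since the lines also differ in Tet2 RNA, by the 2.16 and 1.84 given above, catalytic activity and the amount of Tet2 RNA cannot be told apart here. The paper reports similar levels of WT and mutant TET2 protein in the rescue lines by western blot. Protein was not measured in these libraries. In naïve ESCs 0 of 6 tested markers were called by limma or by limma-voom, and 0.0987% of all genes tested were called. At an unadjusted p under 0.05 from limma, in the fit without pairing of same-numbered libraries, there were 0 markers and 13.3% of all genes. In primed ESCs 0 of 6 were called by either tool, against 0.254% of all genes, and at an unadjusted p under 0.05 there were 0 markers and 16.2% of all genes. In no marker did WT and mutant libraries separate without overlap in either medium. Among all genes tested, WT libraries lay wholly above mutant ones in 8.78% and wholly below in 8.01% in naïve ESCs, and in 11.5% and 10.9% in primed ESCs.

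In primed ESCs the WT minus mutant difference was negative for 5 of the 6 tested markers, none of them called, and positive for 51.3% of all genes tested. The difference was -0.58 for Otx2 (standard error 0.30, 95% interval -1.22 to 0.06, limma, adjusted p = 0.354; exact permutation test, p = 0.3). The Otx2 means were 204 ± 60.1 (SD, n = 3) normalised reads in the WT line and 327 ± 126 (SD, n = 3) in the mutant line. Pou3f1 differed by -0.32, Lin28b by -0.29, Sox3 by -0.23 and Zic2 by -0.09, while Sall2 differed by 0.05. Fgf5, outside the filter, had 15 reads in the 3 WT and 35 in the 3 mutant libraries, a difference of -0.49 without the filter (limma, unadjusted p = 0.0301, adjusted p = 0.306). Its WT and mutant libraries overlapped (exact permutation test, p = 0.3). The limma fit shares its spread over the 4 groups and naïve Fgf5 has none, so the limma p and interval of Fgf5 understate the primed spread. All these intervals other than that of Fgf5 included 0.

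In naïve ESCs Zic2 had the largest difference between lines, at 0.47 (95% interval -0.0055 to 0.95, limma, adjusted p = 0.381), with WT higher in 3 of 3 same-numbered pairs. This fit did not pair same-numbered libraries, although those of the naïve lines deviated together. Over the alternative fits, with the replicate number as a block among them, the lowest limma adjusted p for Zic2 was 0.167. The Zic2 mean was 561 ± 95.7 (SD, n = 3) normalised reads in the WT line and 399 ± 89.2 (SD, n = 3) in the mutant line. Lin28b differed by 0.31 with an interval of -0.26 to 0.88. Otx2, Pou3f1, Sall2 and Sox3 lay between -0.08 and 0.02, each less than the SD of either group. The effect of the rescue was not shown to differ between media for any tested marker. The interaction called 0 of 6 markers and 0% of all genes tested, with 0 markers and 3.45% of genes at an unadjusted p under 0.05. Its largest values were -0.60 for Lin28b, -0.56 for Zic2 and -0.54 for Otx2.

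**Figure D4:**
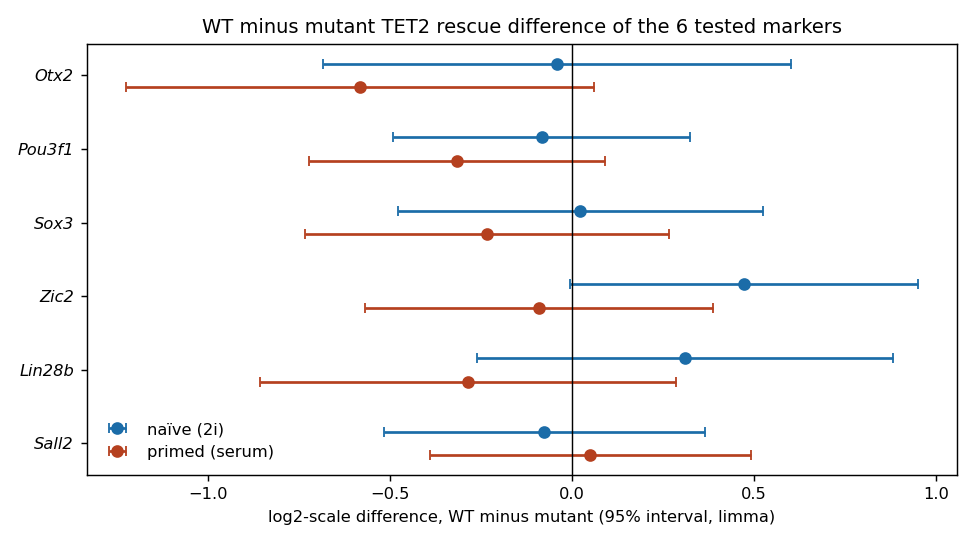
Log2-scale difference between rescue lines (x axis, WT minus mutant TET2) for the 6 tested markers in naïve and primed ESCs, with 95% intervals from limma without pairing of libraries. Every interval includes 0, with Otx2 in primed and Zic2 in naïve ESCs farthest from it.

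Within groups, the markers did not vary together as 1 block. In both primed lines replicate 3 had the lowest Otx2 value, by -0.47 and -0.67 from its group mean, and the highest Zic2 value, by 0.31 and 0.44. Fgf5 was at 3 reads in the primed mutant replicate 3, against 13 and 19 in the other libraries of that group. Primed mutant replicate 2 was above its group mean for Otx2 (0.41), Fgf5 (0.36), Pou3f1 (0.25), Sox3 (0.46) and Sall2 (0.40), and below it for Zic2 (-0.18). Lin28b was lowest in replicate 1 and highest in replicate 3 in both naïve groups. In naïve ESCs Otx2 was highest in mutant replicate 2, at 26 reads, where Pou3f1 and Sox3 were also highest of their group.

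**Figure D5:**
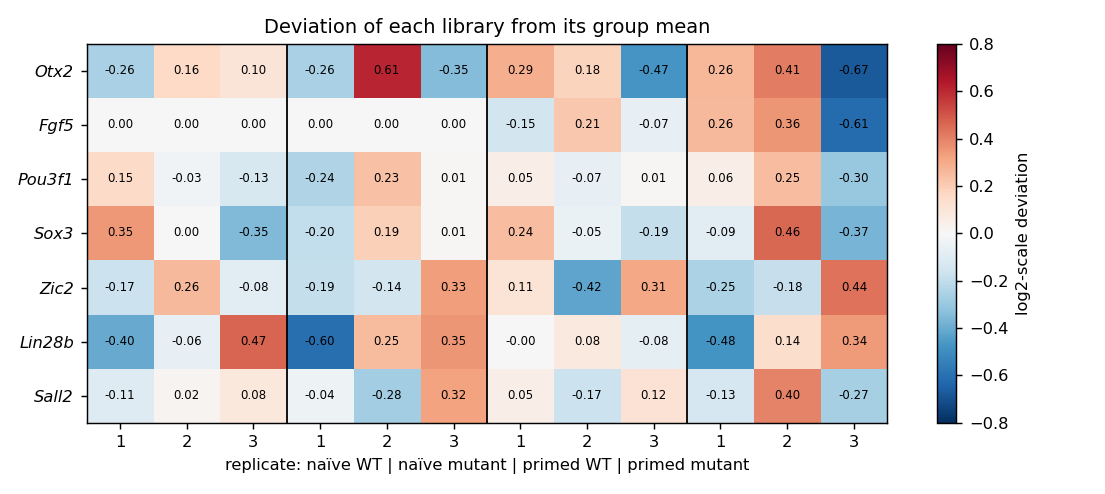
Deviation of each library from its group mean on the log2 scale (colour and printed value) for the 7 markers (rows) in the 12 libraries (columns). Replicate 3 of both primed lines is low for Otx2 and high for Zic2, and naïve Fgf5 is 0 because no read was counted there.

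Over the 12 libraries, the genes whose pattern was most like the mean standardised pattern of the 6 tested markers were Cyyr1, Bambi, Gm10244, Dok2 and Bcl6b. Pearson's r was 0.963 for Cyyr1, 0.958 for Bambi, 0.955 for Gm10244 and 0.953 for both Dok2 and Bcl6b, given as a description since the libraries share their medium. The difference between primed and naïve ESCs was 0.77 for Cyyr1, 1.20 for Bambi, 1.05 for Gm10244, 1.59 for Dok2 and 1.49 for Bcl6b on the log2 scale. Bambi encodes a pseudoreceptor that dampens TGF-beta signalling.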

How the data were processed

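Poly(A) RNA-seq libraries of 4 groups were used (3 per group, by the labels). The authors trimmed reads with Trim Galore 0.3.3, aligned them to mm9 with TopHat2 2.0.9, placing a read with several equally good positions at random, and counted reads per gene. The authors then made variance-stabilised values with DESeq2 and deposited them on a log2 scale, which shrinks differences of low genes. Inverting the transformation gave whole reads for 100% of values (tolerance 0.01). Of 26061 genes, 14185 with a mean at least 1 above the lowest value were tested with limma 3.58.1 (R 4.3.3), as 4 groups in one fit with a variance trend and Benjamini-Hochberg adjustment, called at an adjusted p under 0.05. The deposited values are not counts, so no count model was used other than limma-voom on recovered reads as an alternative. Exact two-sided permutation tests of 3 against 3 libraries cannot give a p below 0.1. The procedure was tested on simulated data. Gene positions came from an annotation of the authors' build. Named genes were the 7 markers, up to 4 tested genes per list with the largest difference between media, the 5 most alike genes, and Setdb1 and Tet2. Called cell type markers, Nes, Krt7, Gata4, Sox17, Sox7, Hand1, Lum, Sox2, Lef1, Tead2, Fgf8 and Fgf15 were added after their values were seen. The members and lists were chosen with earlier results of these data known. Repeat values were not used here, and 1 gene of the lists is not reported here. The results were recomputed with weaker and stricter filters, without the variance trend, after centring on the median or quantile normalization, with the replicate number as a block, by limma-voom, in the compared groups alone, with a difference over 1 required, and without each library in turn. Same-numbered naïve libraries of the lines deviated together over genes (correlations 0.30 to 0.59), which pairs them, whereas those of primed lines (-0.07 to 0.19) and of the media did not.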

Additional observations from a re-analysis of the deposited data

How the results depend on the processing

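The calls for Otx2, Pou3f1, Sall2 and Zic2 between media over both lines had an adjusted p under 0.05 in every alternative fit in which they were tested, with log2-scale ranges of 2.92 to 4.43, 0.88 to 1.25, 0.85 to 1.16 and 0.57 to 0.78. With a mean of at least 3 above the lowest value only 3 markers could be tested, and 2 were called over both lines, 1 in the WT line and 2 in the mutant line, beside 5211, 3534 and 3480 of all 10104 genes tested in that fit. With a difference over 1 also required, 1 was called over both lines, 2 in the WT line and 2 in the mutant line, beside 1591, 1745 and 1636 of all 14185 genes. With the replicate number as a block (replicate block), 209 genes differed between lines in primed and 36 in naïve ESCs, against 36 and 14 without it, and 0 markers were called in either. In the fit with the replicate block Lin28b was called between media, at 0.40 over both lines (limma, adjusted p = 0.0239) and 0.70 in the mutant line (0.0110), although the numbers do not pair the media. Centring and quantile normalization also called Lin28b in the mutant line (0.73 and 0.73). The numbers of all genes called between media over both lines ranged from 1591 to 8342 over the alternatives, the lowest with a difference over 1. Between lines they ranged from 5 to 36 in naïve and from 18 to 209 in primed ESCs, and from 5 to 22 and 12 to 82 when single libraries were left out, and the interaction called 0, or 1 without naïve WT replicate 1.

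Several small differences changed sign, none of them called, and the cause was not tested. In naïve ESCs the WT minus mutant difference was 0.082 for Otx2, 0.0076 for Pou3f1 and 0.0028 for Sall2 after quantile normalization, and 0.17 for Otx2 with limma-voom. When single libraries were left out it ranged from -0.21 to 0.26 for Otx2, -0.20 to 0.034 for Pou3f1, -0.21 to 0.084 for Sall2 and -0.15 to 0.20 for Sox3. In primed ESCs it ranged from -0.25 to 0.13 for Zic2 and -0.082 to 0.25 for Sall2, and the Sall2 interaction from -0.033 to 0.33. The WT-line difference between media ranged from -0.078 to 0.27 for Sox3 and -0.10 to 0.33 for Lin28b. Read numbers were low for Fgf5, at 0 to 19 per library, and Sox3, at 7 to 35.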
